A study of Mus musculus with 24 samples.

Results

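Corticosteroid receptors and the corticotropin-releasing hormone (CRH) system were followed through 7 genes chosen by name, of 51912 genes counted: the receptor genes Nr3c1 and Nr3c2, the enzyme gene Hsd11b1, the peptide gene Crh, the binding protein gene Crhbp, and the CRH receptor genes Crhr1 and Crhr2. All 7 had counts in every library and passed the filter on low counts in every comparison. RNA came from 12 C57BL/6J mice, sampled in dorsal and in ventral hippocampus, whose fathers (sires) had received chronic nicotine or saline. The offspring themselves carry no treatment in the labels. The 24 libraries form 8 groups of 3: nicotine-sired males, nicotine-sired females, saline-sired males and saline-sired females, each as dorsal and as ventral tissue. Both libraries that share a title prefix were read as 1 animal, and animals are called A, B and C within a group. The title number is another one in each of the 4 sire-by-sex groups. The effect of sire treatment and that of whatever the number marks, which may be a sire or a litter, cannot be told apart. The labels do not say that the 3 animals of a group came from separate litters, so p-values measure the spread between these libraries.

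Corticosterone, the main glucocorticoid of mice, acts in the hippocampus through the mineralocorticoid receptor, which Nr3c2 encodes and which binds the hormone tightly, and the glucocorticoid receptor, which Nr3c1 encodes and which is occupied when hormone rises. The enzyme 11-beta-hydroxysteroid dehydrogenase type 1, from Hsd11b1, regenerates active corticosterone from its inert form inside the cell. CRH is best known as the hypothalamic peptide that starts the hormonal stress response. In the hippocampus it is made by interneurons and acts on CRHR1, while CRHBP binds and holds the peptide and CRHR2 is the second receptor of the family.

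The 7 genes lie on separate chromosomes, given by GRCm38 coordinates from GENCODE M21, with Nr3c1 placed further on. Nr3c2 (ENSMUSG00000031618) spans 76899442 to 77245012 of chromosome 8 on the plus strand. Hsd11b1 (ENSMUSG00000016194) spans 193221634 to 193264075 of chromosome 1 on the minus strand. Crh (ENSMUSG00000049796) spans 19693401 to 19695396 of chromosome 3 on the minus strand, and Crhbp (ENSMUSG00000021680) spans 95431371 to 95444924 of chromosome 13 on the minus strand. Crhr1 (ENSMUSG00000018634) spans 104132855 to 104175523 of chromosome 11 on the plus strand, and Crhr2 (ENSMUSG00000003476) spans 55090049 to 55133016 of chromosome 6 on the minus strand. Of the 7 genes, Nr3c2 alone shares exon sequence with another gene, 247 bp opposite the noncoding gene Gm10649, whose summed counts equalled 1.87% of those of Nr3c2.

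Promoter windows of Nr3c2 and Crhr1 are printed because their transcripts moved in opposite directions across libraries, as described further on. RefSeq windows (GRCm38.p6) reach from 250 bases before to 50 bases after a transcript start, and 5 of the 7 genes had one. The 208 bases shown stop before the first annotated exon base. That of Nr3c2 is chr8:76902080-76902287 on the plus strand, inside the Nr3c2 gene span and between its annotated first exons. That of Crhr1 is chr11:104132531-104132738 on the plus strand, upstream of the gene. Capitals mark matches to the GC box GGGCGG or the CCAAT box CCAAT on either strand.
Nr3c2: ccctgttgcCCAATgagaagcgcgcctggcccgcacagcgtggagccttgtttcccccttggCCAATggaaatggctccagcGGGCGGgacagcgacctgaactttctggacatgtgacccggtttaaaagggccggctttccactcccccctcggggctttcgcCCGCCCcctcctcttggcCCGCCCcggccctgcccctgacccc
Crhr1: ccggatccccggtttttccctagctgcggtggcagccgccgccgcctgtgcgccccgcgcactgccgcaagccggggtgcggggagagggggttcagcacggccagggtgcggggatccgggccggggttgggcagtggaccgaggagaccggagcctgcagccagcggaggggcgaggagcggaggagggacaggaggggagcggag
The Nr3c2 window held 3 GC box and 2 CCAAT box matches, and the Crhr1 window held 0 of each. Among 32851 RefSeq windows of the same length, 26.2% held the GC box letters and 29.6% the CCAAT letters. Neither window held the corticosteroid receptor half-site AGAACA, found in 13.7% of windows, or the CRE half-site TGACGT, found in 4.64%. The Nr3c2 window was 67.3% G and C with 14 CpG, and the Crhr1 window 75.5% with 22.

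Library totals were 32049770 to 47486547 counts, with a median of 39578834. Levels are given as CPM, a gene's count divided by the library total scaled with edgeR's TMM method and multiplied by 1000000, and per kilobase of exon where genes are compared with each other. Pan-neuronal Snap25 lay between 1701 and 3248 CPM and the dentate granule cell gene Prox1 between 26.7 and 102.9 CPM. The 6 hypothalamic genes Avp, Oxt, Hcrt, Pmch, Agrp and Sim1 summed to between 0.795 and 3.89 CPM in a library, with Avp reaching 2.33 CPM and Sim1 at 0 in 9 dorsal and 6 ventral libraries. Ttr, a choroid plexus transcript, ran from 25.2 to 5207 CPM. Both libraries of nicotine-sired female A stand apart in Cux2, a marker of upper cortical layers. Dorsal Cux2 was at 78.6 CPM there against 11.5 to 32.0 in the other 11 dorsal libraries. Ventral Cux2 was at 66.2 against 19.1 to 49.5. Dorsal Vip, an interneuron peptide gene, was at 35.3 CPM against 8.36 to 18.5, and dorsal Prox1 at 44.2 against 58.3 to 102.9. Dorsal Pvalb, an interneuron gene, was at 82.1 CPM against 22.6 to 40.3. Rorb was highest, and C1ql2 and Lct were lowest, in this animal in both regions. Not every marker set this animal apart in both regions. Ventral Prox1 (27.9 against 26.7 to 62.8) and ventral Pvalb (40.0 against 27.2 to 49.4) lay within the range of the others. Trhr lay within that range in both regions. The dorsal library of this animal had the highest dorsal sum of the 12 hippocampal neuron markers, 5480 CPM, but pan-neuronal Snap25 made up 3248 CPM of this. Markers of single hippocampal cell types were not high there. Besides Prox1, the dentate gene C1ql2 (38.9 CPM) and the CA2 gene Rgs14 (66.1 CPM) were at their lowest dorsal values. Sire treatment values in females that this animal moved are given with and without it. In bulk tissue, fewer cells of a type and less RNA per cell cannot be told apart.

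Per kilobase, the mineralocorticoid receptor gene had the highest mean level of the 7 and the second CRH receptor gene the lowest. Over the 24 libraries, Nr3c2 averaged 18.95 ± 6.03 CPM per kilobase (SD) and Crhbp 14.94 ± 2.09. Nr3c1 averaged 8.11 ± 1.01 and Hsd11b1 6.48 ± 1.77. Crhr1 averaged 4.77 ± 1.05, Crh 1.79 ± 1.03 and Crhr2 0.35 ± 0.19 (0.143 to 0.930). Each neighbour in this order overlapped the next over libraries. Within ventral libraries Nr3c2, at 14.94 ± 3.18 CPM per kilobase, and Crhbp, at 15.04 ± 1.27, did not differ beyond their spread. Nr3c1 was the steadiest gene, with its highest library 1.61 times its lowest, against 3.07 times for Nr3c2, 6.32 times for Crh and 6.49 times for Crhr2. The ratio of Nr3c2 to Nr3c1, both per kilobase, averaged 2.74 ± 0.73 (SD, n = 12) in dorsal libraries and 1.97 ± 0.48 (n = 12) in ventral ones, with 1.11 and 1.06 as the lowest values.

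**Figure D1:**
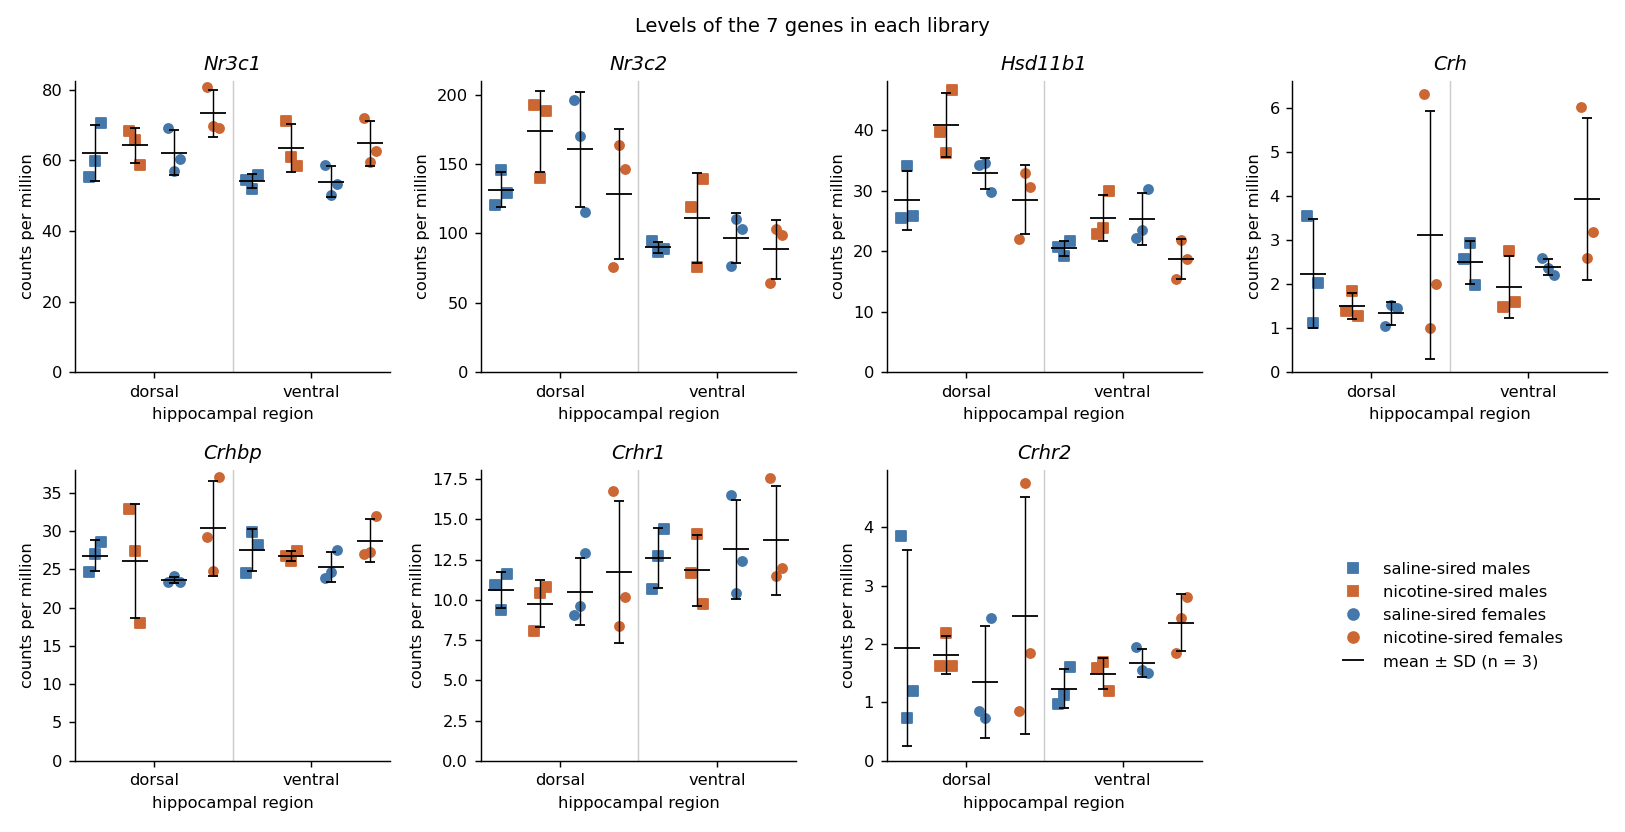
CPM (y axis, from 0) of the 7 genes in each of 24 libraries, by region (x axis), sire treatment (colour) and sex (marker shape), with the mean ± SD of each group of 3. Nr3c2 and Hsd11b1 sit higher in dorsal tissue, and the top Crh and Crhr1 points in each region belong to nicotine-sired female A.

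The clearest contrast for the corticosteroid genes was between the regions: Nr3c2, Hsd11b1 and Nr3c1 were lower in ventral than in dorsal hippocampus. No CRH system gene passed the test in the main fit, which did not use the pairing of regions within animals. Crh and Crhr1 passed it, higher in ventral tissue, with the animal as a block. In the main fit 3 of the 7 genes were called, all lower in ventral tissue. There 29.2% of 19849 genes were called and 14.9% were called lower. A call is an adjusted p under 0.05 in edgeR's quasi-likelihood test, Benjamini-Hochberg adjusted over all genes tested. Fold changes between regions are log2 values, ventral against dorsal, with standard errors.

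Nr3c2, the mineralocorticoid receptor gene, lay between 75.7 and 196.5 CPM in dorsal libraries, with a median of 145.8. In ventral libraries it lay between 64.1 and 139.4 CPM, with a median of 96.6. The ranges overlap, but the dorsal library was higher in 12 of 12 animals. On the fitted scale the ventral level was 0.65 times the dorsal one, a log2 fold change of -0.62 ± 0.14 (edgeR adjusted p = 0.0025).

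Hsd11b1, the corticosterone-regenerating enzyme gene, lay between 22.0 and 46.5 CPM in dorsal libraries (median 33.4) and between 15.4 and 30.3 CPM in ventral ones (median 22.0). The dorsal library was higher in 11 of 12 animals, and saline-sired female C, at 29.8 dorsal and 30.3 ventral, was the exception. The log2 fold change was -0.54 ± 0.08 (edgeR adjusted p = 5.1e-05), the smallest p of the 7 genes.

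Nr3c1, the glucocorticoid receptor gene (ENSMUSG00000024431, chromosome 18, 39410545 to 39519421, minus strand), showed a smaller step, from 55.3 to 81.0 CPM in dorsal libraries (median 67.1) and from 50.1 to 72.0 CPM in ventral ones (median 58.5). It was lower in the ventral library of 11 of 12 animals, nicotine-sired male A being the exception. The log2 fold change was -0.15 ± 0.05 (edgeR adjusted p = 0.0283). The call ended without nicotine-sired male B (adjusted p = 0.0749), without saline-sired male B (0.0667) or without saline-sired male C (0.0680).

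Crh, the peptide gene, lay between 0.998 and 6.30 CPM in dorsal libraries (median 1.48) and between 1.48 and 6.01 CPM in ventral ones (median 2.57), from 39 to 282 counts. Crhr1, its main receptor gene here, lay between 8.06 and 16.7 CPM (median 10.3) and between 9.73 and 17.6 CPM (median 12.2). Both had a higher ventral library in 9 of 12 animals, and neither passed the test: Crh was at 0.43 ± 0.25 (edgeR adjusted p = 0.223) and Crhr1 at 0.26 ± 0.12 (edgeR adjusted p = 0.0999). With the animal as a block, both were called higher in ventral tissue, Crh at 0.50 ± 0.16 (edgeR adjusted p = 0.0277) and Crhr1 at 0.27 ± 0.08 (edgeR adjusted p = 0.0262), so that 5 of the 7 genes were called. Leaving out nicotine-sired female A gave the same 5 genes, with Crh at 0.57 ± 0.18 (edgeR adjusted p = 0.0187) and Crhr1 at 0.29 ± 0.09 (edgeR adjusted p = 0.0220).

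Crhbp and Crhr2 split evenly, with 6 animals higher in each region. Crhbp, whose product holds CRH, lay between 18.0 and 37.1 CPM in dorsal and 23.8 and 32.0 CPM in ventral libraries, with a log2 fold change of 0.02 ± 0.08 (edgeR adjusted p = 0.881). Crhr2 lay between 0.733 and 4.76 CPM in dorsal and 0.970 and 2.81 CPM in ventral libraries, with -0.17 ± 0.28 (edgeR adjusted p = 0.696).

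**Figure D2:**
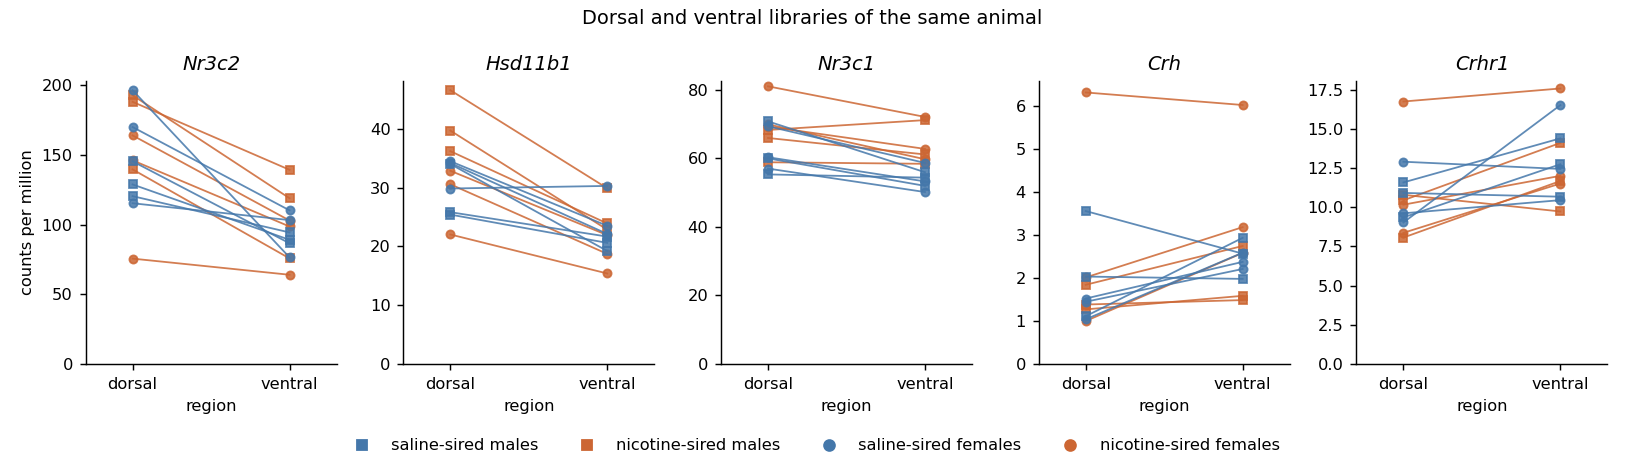
CPM (y axis, from 0) of 5 genes in the dorsal and the ventral library of each animal, joined by a line, coloured by sire treatment and marked by sex. Lines for Nr3c2 fall in all 12 animals, those for Hsd11b1 and Nr3c1 in 11, and those for Crh and Crhr1 rise in 9.

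The regional step was present in offspring of both kinds of sire, again in the fit that did not use the pairing within animals. In saline-sired animals edgeR called Hsd11b1 (-0.43 ± 0.12, adjusted p = 0.0176) and Nr3c2 (-0.64 ± 0.20, adjusted p = 0.0354), 2 of 7 genes, both lower, against 14.5% of all genes called and 7.72% called lower. In nicotine-sired animals it called the same 2, Hsd11b1 at -0.65 ± 0.12 (adjusted p = 0.000576) and Nr3c2 at -0.59 ± 0.20 (adjusted p = 0.0451), against 16.9% of all genes called and 8.15% called lower. The difference in sire treatment effect between the regions was called for 0 of 7 genes and for 0 of all genes (0%), with 0 of the 7 at an unadjusted p under 0.05 and 0 by DESeq2. The nicotine-sired call of Hsd11b1 held in 12 of 12 refits that each left out 1 animal (log2 -0.67 to -0.62, edgeR adjusted p 0.000262 to 0.00622). The other 3 calls did not all hold. The saline-sired call of Nr3c2 ended in refits without saline-sired female A, female B, male A, male B or male C (log2 -0.68 to -0.48), and that of Hsd11b1 without female A, female B or male B (-0.38 to -0.32). The nicotine-sired call of Nr3c2 ended without nicotine-sired female B, female C, male A, male B or male C, and without saline-sired female B, male A, male B or male C (-0.66 to -0.55).

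Markers of cell types and tissues also differed between the regions. Of all genes, 14.3% were called higher and 14.9% lower in ventral tissue. Hippocampal neuron markers were called lower in ventral tissue for 7 of 12 genes (median log2 -0.37), among them Rgs14, a gene of CA2 neurons, at -0.77 ± 0.11, Rbfox3 at -0.28 ± 0.04, Bok at -0.70 ± 0.11 and the neuronal transcription factor gene Neurod2 at -0.51 ± 0.10. Interneuron markers were higher for 7 of 12 and lower for 2 (median 0.30), with Nos1 at 0.57 ± 0.07 and Sst at 0.39 ± 0.06. Of 6 genes marking cortex or amygdala, 4 were higher, their summed level lying between 143.2 and 224.9 CPM in dorsal and 216.0 and 314.2 CPM in ventral libraries. None of the 6 was at 0. Oligodendrocyte markers were lower in ventral tissue for 7 of 8 genes (median -0.79), and choroid plexus markers for 10 of 12 (median -2.05). The part of these 5 marker lists in the regional differences of the 7 genes was not tested.

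Some pairs among Nr3c2, Hsd11b1, Crh and Crhr1 varied together across animals within a region. Hsd11b1 with Crhr1 did not pass in either region (adjusted permutation p = 0.0935 dorsal and 0.281 ventral). No pair that held Nr3c1, Crhbp or Crhr2 had an adjusted permutation p under 0.05. In dorsal libraries Nr3c2 and Crhr1 had a Pearson r of -0.885 over 12 animals (permutation p = 0.0004, adjusted over 42 pairs 0.00714) and a Spearman rho of -0.818 (permutation p = 0.0018, adjusted 0.0378). In ventral libraries r was -0.89 (permutation p = 0.00012, adjusted 0.00504) and rho -0.839 (permutation p = 0.00116, adjusted 0.0378). Without the 2 libraries farthest from the median of Nr3c2, r was -0.727 dorsal and -0.777 ventral. Libraries rich in the mineralocorticoid receptor transcript thus held less of the CRH receptor transcript, in either region.

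Hsd11b1 went with Nr3c2 in dorsal libraries, with r = 0.846 (permutation p = 0.00051, adjusted 0.00714), rho = 0.79 (permutation p = 0.00335, adjusted 0.0469) and r = 0.827 without the 2 farthest libraries. In ventral libraries the same pair had r = 0.663 (permutation p = 0.0194, adjusted 0.0905) and rho = 0.531 (permutation p = 0.0803, adjusted 0.303), and r = 0.183 without the 2 farthest. Crh ran against Nr3c2, with r = -0.837 in dorsal (permutation p = 0.00155, adjusted 0.0163; rho = -0.692, permutation p = 0.0155, adjusted 0.109) and r = -0.798 in ventral libraries (permutation p = 0.0024, adjusted 0.0202; rho = -0.755, permutation p = 0.00685, adjusted 0.0719). Without the 2 farthest libraries the Crh values were -0.558 and -0.524, so this relation rests in part on those libraries. Of the 42 gene pairs by region, 8 had an adjusted permutation p under 0.05 for r. The other 3 were Hsd11b1 with Crh in both regions and Crh with Crhr1 in dorsal libraries. For rho these 3 did not pass. Hsd11b1 with Crh had rho = -0.594 dorsal (adjusted permutation p = 0.192) and -0.65 ventral (0.134), and Crh with Crhr1 0.727 dorsal (0.0836).

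The tissue markers followed the same axis. Over all 24 libraries, which share animals and sequencing depth, Cux2 had r = -0.907 with Nr3c2 and 0.887 with Crhr1, and -0.927 and 0.876 after group means were removed. These are descriptions with no test. Cux2 was chosen after its values were seen, and its part in the relation of Nr3c2 to Crhr1 was not tested.

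**Figure D3:**
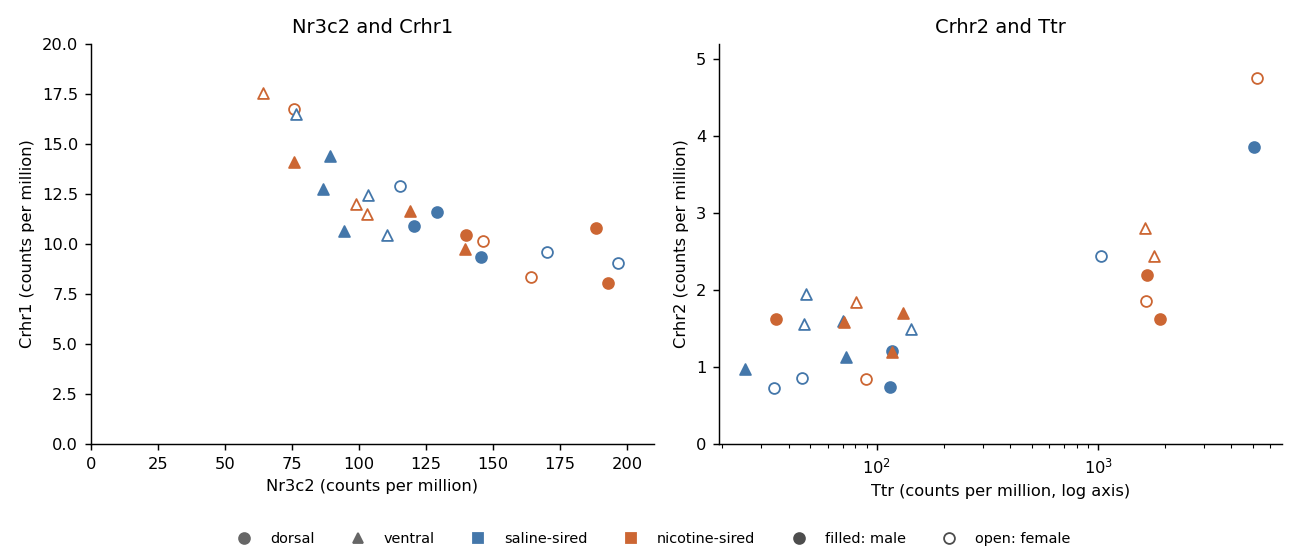
Left, Crhr1 against Nr3c2 in CPM for 24 libraries. Right, Crhr2 against Ttr in CPM, with Ttr on a log axis. Shape gives the region, colour the sire treatment and fill the sex. Crhr1 falls as Nr3c2 climbs, and the 2 highest Crhr2 libraries, at 3.86 and 4.76 CPM, are the 2 highest in Ttr.

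Genes whose pattern was most like each member were ranked by Pearson r of log2 CPM over the 24 libraries among 13026 protein-coding genes. Nr3c2 was most like Lmo3 (r = 0.961), Arhgap12 (0.956) and Lmo7 (0.954). Nr3c1 was most like Slc30a4 (0.854), Lrrc8b (0.826) and Flrt2 (0.82). Hsd11b1 was most like Lefty1 (0.938), Rem2 (0.93) and Map4 (0.929). On the CRH side the likeness was closer for the receptor genes than for the peptide's binding protein. Crh was most like Bcl2 (r = 0.848), Vat1 (0.845) and Tmem132d (0.84), and Crhr1 most like Ttc9b (0.901), Stmn1 (0.898) and Gsg1l (0.896). Crhbp reached at most r = 0.696, with Txlnb, followed by Edn1 (0.646) and Lgals8 (0.599). Crhr2 was most like Arhgef5 (0.873), Msx1 (0.873) and Cpq (0.872).

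Crhr2 moved with the choroid plexus transcript Ttr. The 6 dorsal libraries with Ttr above 1000 CPM had 1.63 to 4.76 CPM of Crhr2 (median 2.32), and the other 6 had 0.733 to 1.63 CPM (median 0.851). The 2 ventral libraries above that level had 2.44 and 2.81 CPM of Crhr2, and the other 10 had 0.970 to 1.94 CPM. All 12 choroid plexus markers together summed to between 47.6 and 5651 CPM, and Ttr and Crhr2 had r = 0.767 over the 24 libraries, as a description.

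For sire treatment, no member passed edgeR's test in either sex or region. The 8 comparisons (each sex, both sexes together and the difference between the sexes, by region) gave 56 tests of the 7 genes with 0 calls. An unadjusted p under 0.05 was found in 12 of them, and DESeq2 made 4 calls. Of all genes, edgeR gave such a p to 2062 to 3859 of 19130 in the dorsal comparisons. In the ventral ones it did so for 2668 to 3042 of 19224. The 12 were not tested against these shares, and the share of all genes that DESeq2 called is not given here. Among all genes edgeR called 1.78% in males and 0.0314% in females in dorsal tissue, and 3.21% and 0.0312% in ventral tissue. Over both sexes it called 0.0784% dorsal and 1.75% ventral, and for the difference between the sexes 2.24% and 1.07%. Comparisons of one sex, of both sexes and of the difference share libraries. Fold changes are log2 values, nicotine-sired against saline-sired. Whether groups of 3 libraries overlap is given as a description, because the share of all genes without overlap was not computed.

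**Figure D4:**
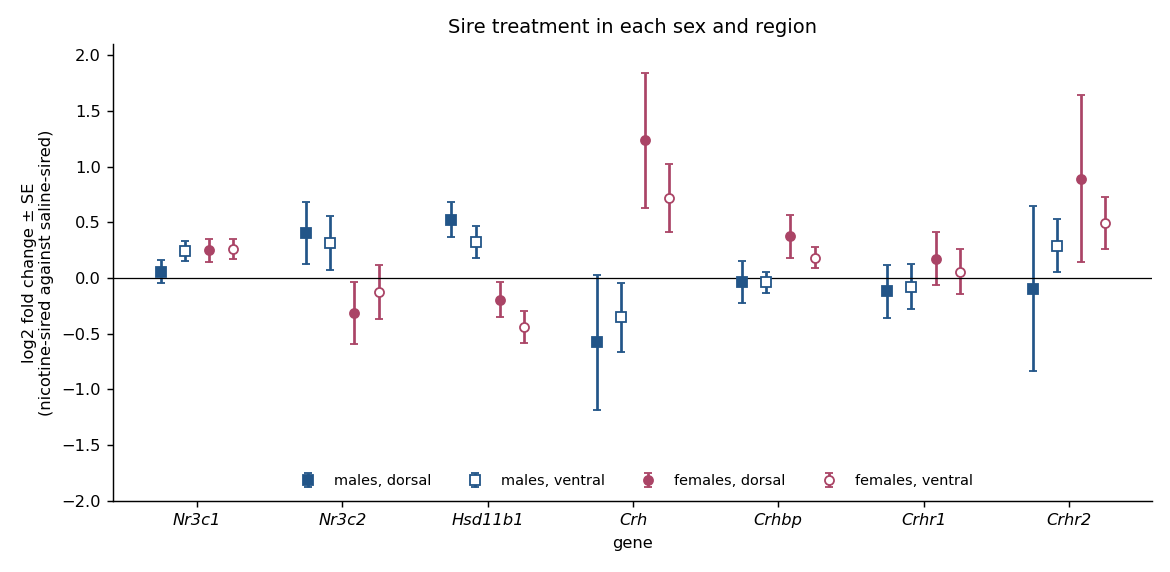
Log2 fold change (y axis, nicotine-sired against saline-sired, with standard error) of the 7 genes (x axis) in males and females, dorsal (filled) and ventral (open), 3 libraries per group. Hsd11b1 lies above 0 in males and below 0 in females, Nr3c1 lies above 0 in all 4 comparisons, and edgeR called none of these values.

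Nr3c1, the glucocorticoid receptor gene, came nearest to a call, in ventral tissue over both sexes. Ventral nicotine-sired males had 71.1, 61.1 and 58.4 CPM against 54.3, 51.9 and 55.9 CPM in saline-sired males. Ventral nicotine-sired females had 72.0, 59.7 and 62.7 CPM against 58.6, 50.1 and 53.2 CPM in saline-sired females. In each sex the ventral groups did not overlap, nicotine-sired being higher, with no share of all genes to set beside this. The log2 fold change was 0.24 ± 0.09 in males (edgeR adjusted p = 0.192), 0.26 ± 0.09 in females (edgeR adjusted p = 0.240) and 0.25 ± 0.06 over both (edgeR adjusted p = 0.0659). The value over both sexes was called by DESeq2 (0.25 ± 0.07, adjusted p = 0.0199), with no low-count filter (edgeR adjusted p = 0.0217), with choroid plexus level as covariate (0.34 ± 0.07, edgeR adjusted p = 0.0344), with the replicate letter as a block (edgeR adjusted p = 0.0262) and without saline-sired female A (0.28 ± 0.07, edgeR adjusted p = 0.0438). The antisense ratio, the counts of noncoding genes opposite coding genes over those of the coding genes, was 0.426% to 0.508% in ventral nicotine-sired males and at most 0.355% in other ventral libraries. With that ratio as a covariate the Nr3c1 value was 0.45 ± 0.19 (edgeR adjusted p = 0.938). Because the ratio sets ventral nicotine-sired males apart from all other ventral libraries, that fit cannot tell the ratio from sire treatment in males. The same holds for every ventral value in males, over both sexes or for the sex difference that is given with this covariate. Without nicotine-sired female A the ventral female value was 0.17 ± 0.09, and the value over both sexes was 0.21 ± 0.06 (edgeR adjusted p = 0.116). Of 12 refits that each left out an animal, 1 called the value over both sexes (edgeR adjusted p 0.0438 to 0.146).

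Dorsal Nr3c1 was less separated. Nicotine-sired males had 68.2, 65.9 and 58.8 CPM against 55.3, 60.0 and 70.8 CPM in saline-sired males, and these groups overlapped (0.06 ± 0.10, edgeR adjusted p = 0.828). Nicotine-sired females had 81.0, 69.9 and 69.2 CPM against 69.3, 57.0 and 60.3 CPM in saline-sired females, which overlapped narrowly, with female A highest of all (0.25 ± 0.10, edgeR adjusted p = 0.342). Without nicotine-sired female A the female value was 0.16 ± 0.11.

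Nr3c2, the mineralocorticoid receptor gene, had opposite signs in the sexes and wide spread. Dorsal nicotine-sired males had 192.9, 139.7 and 188.2 CPM against 120.5, 145.5 and 128.9 CPM (0.40 ± 0.28, edgeR adjusted p = 0.493). Dorsal nicotine-sired females had 75.7, 164.1 and 146.2 CPM against 196.5, 170.1 and 115.4 CPM (-0.31 ± 0.28, edgeR adjusted p = 0.647). Both pairs of groups overlapped, and the lowest value was that of nicotine-sired female A. In its absence the dorsal female value was -0.05 ± 0.21. Ventral values were 0.31 ± 0.24 in males and -0.13 ± 0.24 in females. With the antisense ratio covariate the ventral male value was -1.19 ± 0.68, and without nicotine-sired female A the ventral female value was 0.05 ± 0.23.

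Hsd11b1, the corticosterone-regenerating enzyme gene, also had opposite signs in the sexes, with less spread. Dorsal nicotine-sired males had 39.7, 36.2 and 46.5 CPM against 25.4, 34.0 and 25.8 CPM in saline-sired males. Dorsal nicotine-sired females had 22.0, 32.9 and 30.6 CPM against 34.2, 34.5 and 29.8 CPM. The male groups did not overlap, nicotine-sired being higher, and the female groups did. How many of all genes separate in this way was not computed. The log2 fold change was 0.52 ± 0.16 in males (edgeR adjusted p = 0.125) and -0.20 ± 0.16 in females (edgeR adjusted p = 0.602). In the absence of nicotine-sired female A the dorsal female value was -0.05 ± 0.14.

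In ventral tissue, nicotine-sired males had 22.8, 23.9 and 29.9 CPM of Hsd11b1 against 20.6, 19.2 and 21.7 CPM in saline-sired males. Nicotine-sired females had 15.4, 21.9 and 18.7 CPM against 22.1, 23.5 and 30.3 CPM. Neither pair overlapped, with nicotine-sired males higher and nicotine-sired females lower than their controls. The share of all genes that do the same was not computed. The values were 0.33 ± 0.14 (edgeR adjusted p = 0.290) and -0.44 ± 0.15 (edgeR adjusted p = 0.226), and the female value was -0.32 ± 0.15 in the absence of female A.

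The difference between the sexes in the Hsd11b1 treatment effect, female minus male, was -0.72 ± 0.22 in dorsal (edgeR adjusted p = 0.107) and -0.77 ± 0.21 in ventral tissue (edgeR adjusted p = 0.102), neither called. DESeq2 called both (adjusted p = 0.0345 and 0.0249) and the dorsal male value (adjusted p = 0.0331). With choroid plexus level as covariate the ventral difference was -1.05 ± 0.20 (edgeR adjusted p = 0.0269). Without nicotine-sired female A the dorsal male value was 0.53 ± 0.12 (edgeR adjusted p = 0.0359). This was the 1 call of the dorsal male value in 12 refits that each left out an animal (edgeR adjusted p up to 0.362). With the antisense ratio covariate the ventral male Hsd11b1 value was -0.45 ± 0.44 and the sex difference -0.18 ± 0.37.

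Crh values in females were led by 1 animal. Dorsal Crh was 6.30, 0.998 and 2.01 CPM in nicotine-sired females against 1.04, 1.52 and 1.44 CPM in saline-sired females (1.24 ± 0.61, edgeR adjusted p = 0.409). Ventral Crh was 6.01, 2.58 and 3.18 CPM against 2.58, 2.37 and 2.21 CPM (0.72 ± 0.30, edgeR adjusted p = 0.319). Female A was the highest library in both regions, and in its absence the values were 0.17 ± 0.44 and 0.26 ± 0.26. In males the signs were opposite, with dorsal Crh at 1.38, 1.84 and 1.27 CPM against 3.55, 1.11 and 2.03 CPM (-0.58 ± 0.61) and ventral Crh at -0.35 ± 0.31. With the antisense ratio covariate the ventral male value was 1.34 ± 0.86, of the opposite sign.

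Crhbp, the binding protein gene, was 29.2, 24.8 and 37.1 CPM in dorsal nicotine-sired females and 23.4, 24.1 and 23.4 CPM in saline-sired females. These groups did not overlap, with no share of all genes to set beside this. The log2 fold change of 0.37 ± 0.19 was not called (edgeR adjusted p = 0.425). In the other 3 comparisons of one sex in one region Crhbp lay between -0.04 and 0.18. Crhr1, the first CRH receptor gene, lay between -0.12 and 0.17 in all 4 with standard errors of 0.20 to 0.24, and its groups overlapped in each. Without nicotine-sired female A the female values changed sign, to -0.19 ± 0.17 dorsal and -0.17 ± 0.19 ventral.

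Crhr2, the second CRH receptor gene, was 0.849, 4.76 and 1.85 CPM in dorsal nicotine-sired females and 0.852, 0.733 and 2.45 CPM in saline-sired females. The groups overlapped, and female B, at 4.76 CPM, set the log2 fold change of 0.89 ± 0.75 (edgeR adjusted p = 0.623). With choroid plexus level as covariate it was -0.07 ± 0.44. Ventral females were at 0.49 ± 0.23 (edgeR adjusted p = 0.366) and at 0.17 ± 0.31 with that covariate.

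Saline-sired females and males were compared as the baseline of sex. None of the 7 genes was called in dorsal tissue, where 1.91% of all genes were, or in ventral tissue, where 2.31% were. DESeq2 called 0 of 7 in each region. The counts at an unadjusted edgeR p under 0.05 were 0 dorsal and 1 ventral, beside 3585 of all 19130 genes dorsal and 3319 of 19224 ventral. The 1 ventral member was Hsd11b1 at 0.32 ± 0.14 (edgeR adjusted p = 0.282), higher in females.

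Genes that surround the 7 in the pathway were taken from 6 lists. Receptor chaperones, which hold unliganded steroid receptors ready to bind hormone, were lower in nicotine-sired males for 5 of 12 genes in dorsal tissue (median -0.35) and for 6 of 12 in ventral tissue (median -0.35), while edgeR called 0 of 12 in females (4 dorsal and 5 ventral at an unadjusted p under 0.05, and 1 and 2 called by DESeq2). The difference between the sexes itself was called for 4 of 12 in dorsal and 5 of 12 in ventral tissue. Over both sexes edgeR called 0 of 12 in dorsal tissue and 2 of 12, lower, in ventral tissue. Of all genes, 1.31% and 1.39% were called lower in males. In females, 2547 of 19130 dorsal and 2668 of 19224 ventral genes were at an unadjusted p under 0.05. The median of all genes was within 0.01 of 0 in each comparison of one sex, and for the difference between the sexes it was 0.018 dorsal and -0.007 ventral. Stip1, the adaptor between HSP70 and HSP90, was at -0.64 ± 0.06 and -0.69 ± 0.06 in males, and Fkbp4, an immunophilin of receptor complexes, at -0.54 ± 0.07 and -0.59 ± 0.07. Dorsal Stip1 was 148.2, 160.0 and 148.1 CPM in nicotine-sired males and 232.6, 233.9 and 247.8 CPM in saline-sired males, beside 178.8 to 190.1 CPM in nicotine-sired and 144.8 to 158.2 CPM in saline-sired females. For dorsal Stip1 the saline-sired males were thus above the other 3 groups. Among saline-sired animals, 6 of 12 chaperones were called lower in females than in males in dorsal tissue and 6 of 12 in ventral tissue (median -0.32 in each). Of all genes, 1.91% and 2.31% were called in that comparison of the sexes.

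Of 14 genes known to be induced by corticosteroids, 4 were lower in nicotine-sired males in dorsal (median -0.34) and 4 in ventral tissue (median -0.39). In dorsal females edgeR called 0 (7 at an unadjusted p under 0.05, 1 by DESeq2). In ventral females it called 1, Tsc22d3 at -0.67 ± 0.09 (5 at an unadjusted p under 0.05, 4 by DESeq2). Over both sexes edgeR called 2 lower in dorsal and 5 lower in ventral tissue, where it called 0.0784% and 1.75% of all genes. The difference between the sexes was called for 3 of 14 dorsal and 1 of 14 ventral. Saline-sired females were lower than saline-sired males for 5 of 14 dorsal (median -0.38) and 5 of 14 ventral. Dorsal Sgk1, a kinase gene, was 76.3, 69.1 and 77.1 CPM in nicotine-sired males and 170.5, 171.9 and 146.2 CPM in saline-sired males, with all female libraries between 43.4 and 66.1 CPM. In dorsal males, chaperones called lower numbered 2 when nicotine-sired male A was left out, and 3 when male B or male C of either sire treatment was. The corticosteroid-induced genes called lower numbered 2 when any 1 saline-sired male, or male A or B of the nicotine-sired, was left out, and 2 when the antisense ratio was a covariate. In ventral males that covariate left 0 in both lists, but there it cannot be told apart from sire treatment. Fkbp5 stands in both lists.

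Steroid-metabolizing genes were mostly low or not called. Akr1c14, which acts on neurosteroids, was the 1 gene of 7 tested that was called in males, at 1.66 ± 0.28 dorsal and 1.61 ± 0.34 ventral. Its dorsal values were 1.78, 1.39 and 1.63 CPM in nicotine-sired and 0.423, 0.444 and 0.652 CPM in saline-sired males. Hsd11b2, the enzyme that inactivates corticosterone in kidney, had at most 2 counts in any library, whereas H6pd, whose product supplies cofactor to the Hsd11b1 enzyme, lay between 4.32 and 7.59 CPM. The coregulator list had 1 of 12 called in males in each region, Smarca4 at -0.24 ± 0.05 and -0.28 ± 0.06. Of 15 genes downstream of CRH receptors, 1 was called in dorsal males, the G protein gene Gnal at -0.35 ± 0.07.

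The urocortin relatives of CRH were barely detected, and some receptor genes of other peptides differed by region. The urocortin genes Ucn, Ucn2 and Ucn3, whose products are ligands of CRHR2, had at most 5, 2 and 2 counts in a library. Of 8 related peptide and receptor genes tested between regions, 3 were called: the oxytocin receptor gene Oxtr at 1.11 ± 0.11, Adcyap1r1 at 0.28 ± 0.04 and the vasopressin receptor gene Avpr1b at -2.58 ± 0.38. Avpr1b had a ventral library with 0 counts and a ventral median of 0.0997 CPM against 0.774 CPM in dorsal libraries. For sire treatment edgeR called 0 of this list in either sex, and DESeq2 called 1, in ventral females. At an unadjusted p under 0.05 were 2 in dorsal and 0 in ventral males, and 0 in dorsal and 2 in ventral females. Beside them, 3362 of all 19130 genes in dorsal males and 2668 of 19224 in ventral females were under 0.05.

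Between regions, 7 of 15 genes downstream of CRH receptors were higher and 3 lower in ventral tissue, Adcy1 at -0.77 ± 0.07 and the receptor kinase gene Grk3 at 0.64 ± 0.08. Of the 12 coregulators 6 were lower and 1 higher, with Ncoa3 at -0.27 ± 0.04 and Ppargc1a at 0.36 ± 0.08. Of the 14 corticosteroid-induced genes 5 were lower and 1 higher, with Jdp2 at -0.66 ± 0.08, Sgk1 at -0.50 ± 0.06, Klf9 at -0.36 ± 0.05 and Tsc22d3 higher at 0.18 ± 0.05. Read against the 14.3% of all genes called higher and 14.9% called lower, these counts are a description of the lists.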

How the data were processed

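Raw counts of reads per Ensembl gene were deposited by the authors as 1 table (51912 genes, 24 libraries). Per the labels' protocols, a stranded mRNA kit and single-end reads of 150 bp over 3 lanes were used. TopHat2 2.1.0, Cuffdiff 2.2.1.3, Cufflinks, mm10 and GRCm38 are listed, with no role, per the submitters' processing notes. Which tool counted the reads, with which strand setting and annotation, is not given in the sources used here. GENCODE M21 held 51719 of the identifiers, and 193 were not found.

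Tests on the deposited counts used edgeR 4.0.16 in R 4.3.3, with TMM scaling, filterByExpr, robust quasi-likelihood F tests (two-sided) and Benjamini-Hochberg adjustment over all genes tested, with calls below 0.05. The regions had separate fits of 4 group means (19130 dorsal and 19224 ventral genes), and 1 joint fit of 24 libraries (19849 genes) compared them. Common biological coefficients of variation were 0.160 dorsal, 0.118 ventral and 0.140 in the joint fit. The procedure was tested on simulated data. Correlations of log2 CPM (prior count 2) had p-values from 100000 permutations, two-sided, adjusted over 42 pairs. Animals of a region were permuted freely across the sire and sex groups.

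Alternatives were RLE size factors, no low-count filter, DESeq2 1.42.0, a non-robust fit, the replicate letter or animal as a block, choroid plexus level or antisense ratio as a covariate, the spread of all 24 libraries, and leaving out each animal in turn. The members and lists were chosen with earlier results of these data known. Named from the lists are called genes, at most the 4 with the smallest p per list and comparison, and markers given as a check. For likeness, the 3 genes with the highest r were named among protein-coding genes with a mean of at least 1 CPM. The per-library values of Stip1, Sgk1 and Akr1c14 were chosen for printing after they were seen.

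A dorsal and a ventral library that share a title prefix were taken as 1 animal and pair. The deviations of the 12 pairs from group means correlated with r from -0.203 to 0.753, median 0.27, with 8 pairs over 0.1. Replicate pairs of a group differed by more than sampling noise, with a chi-square per degree of freedom of 5.9 to 75.2 over 24 pairs. Figures were drawn with matplotlib 3.10.9.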

Additional observations from a re-analysis of the deposited data

How the results depend on the processing

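Counts of called members under sire treatment moved from 0 to 1 under some settings. In dorsal males DESeq2 called 1 (Hsd11b1), and refits without 1 replicate gave 0 to 1. For the difference between the sexes, DESeq2 called 1 in dorsal and 1 in ventral tissue, and the choroid plexus covariate called 1 in ventral tissue (Hsd11b1 each time). In ventral tissue over both sexes, DESeq2, the choroid plexus covariate, no low-count filter and the replicate block each called 1 (Nr3c1), and refits without 1 replicate gave 0 to 1. Between regions, the replicate block by animal called 5 of the 7 genes, and refits without 1 replicate gave up to 5. Among saline-sired animals the antisense ratio covariate and no low-count filter each left 1 call, and refits without 1 replicate gave 0 to 3. Among nicotine-sired animals the antisense ratio covariate, the choroid plexus covariate and no low-count filter each left 1, and refits without 1 replicate gave 1 to 2. The causes were not tested.

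Of 98 member values, 46 changed sign under at least 1 alternative, and 0 of these passed the threshold in either fit. Apart from the animals, which pair, libraries of different groups share only a letter: same-letter deviations had a median r of -0.159 dorsal and 0.038 ventral, and the replicate block by letter changed no other count of calls among the members. Crh and Crhr2, with 27 to 282 counts per library, are the least precisely measured.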
